A study of Mus musculus with 22 samples.

Results

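The collagen genes are the 44 genes of the deposited tables, among 24786, whose mouse symbol is built as Col, a type number, the letter a and a chain number. Membership was set by the symbol, with earlier results of these data known. The genes were sorted by the assembly their chains form into 11 fibrillar, 8 basement membrane and 25 other collagens. The other class held 6 beaded filament chains (type VI), 9 fibril-associated chains, 4 transmembrane chains, 3 short chains, 1 anchoring fibril chain and 2 chains outside these kinds.

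RNA of whole mouse liver and thymus was sequenced in bulk and given as RPKM (read numbers divided by the gene's length and the library's mapped reads), a scale on which genes of different length can be compared. All mice were C57BL/6 and 2 to 4 weeks old by the labels. The liver table held 2 libraries each of untreated Aire+/+ mice, untreated TG Aire-/- mice and TG Aire-/- mice depleted of CD8+ T cells. The thymus table held 3 libraries each of untreated Aire-/-, TG Aire+/- and TG Aire-/- mice. TG is not spelled out by the labels. The title of the series speaks of dnTGFβRII Aire-/- mice. The dnTGFβRII transgene is known as a dominant-negative TGF-β receptor expressed in T cells from a Cd4 promoter, so the matrix-forming cells of the liver keep their own receptor. Aire directs the display of tissue antigens in the thymus. Both liver TG groups carry the transgene and the Aire deletion together, and no liver group used here carries one of them alone, so the alleles cannot be told apart in liver. How and for how long CD8+ T cells were depleted is not stated by the labels.

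Collagens are secreted trimers that give tissues their mechanical frame. Fibrillar collagens, above all types I and III, build the banded fibrils of connective tissue and the scar of a fibrotic liver, where stellate cells and portal fibroblasts are the known sources. Type IV chains form the network of basement membranes under endothelium and epithelium, and type XVIII, which hepatocytes make in quantity, joins such membranes and releases endostatin. In the thymus collagens come from the capsule, the septa and the mesenchyme around vessels.

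Libraries of the liver held 20080000 to 22840000 and those of the thymus 22160000 to 29820000 reads, inferred from the spacing of the lowest RPKM values. In liver the hepatocyte gene Alb ranged from 18964 to 49396 RPKM, as the label calls for. In the thymus the library labelled TG Aire-/- replicate 1 stood apart from the other 8: Rag1 and Dntt, which mark immature thymocytes, were at 0.571 and 2.60 RPKM, against 158 to 614 and 280 to 481 elsewhere. The fat cell hormone Adipoq was at 13.5 RPKM in that library and at 0.273 to 1.82 in the others. Thymus comparisons that use it are therefore given with and without it. The labels do not say that replicates came from separate animals, and p-values then measure only the spread between these libraries.

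One sequence feature recurs across the collagens and is shown here because it spans all 3 classes. The 3′ untranslated regions of 25 of the 44 collagen genes (56.8%) hold TGGTGCT, the perfect match to the seed of the miR-29 family, which is a known repressor of collagen mRNAs. Among 21005 genes with an annotated 3′ untranslated region 13.1% hold it. The match was found in 9 of 11 fibrillar, 7 of 8 basement membrane and 9 of 25 other collagens. Within the first 500 bases after the stop codon, over regions at least that long, 12 of 39 collagens (30.8%) and 5.22% of 14281 genes held it. By class these were 3 of 10 fibrillar, 6 of 8 basement membrane and 3 of 21 other collagens. The family's mature RNAs (RefSeq, GRCm38.p6) share 1 seed, bases 2 to 8, in capitals:
mmu-miR-29a-3p: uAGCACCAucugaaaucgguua
mmu-miR-29b-3p: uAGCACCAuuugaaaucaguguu
mmu-miR-29c-3p: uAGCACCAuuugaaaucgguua

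Sites of some of the genes that carried the liver differences, from GENCODE vM21 transcripts on GRCm38, are given 5′ to 3′ on the gene's strand with the seed match in capitals. Col5a1, Col6a3 and Col16a1, which were also called in liver, have matches that are not shown. Col4a3 has 4 matches and the site nearest its stop codon is shown, and Col4a2 has both of its sites shown.
Col1a1, chr11:94952524-94952545, plus strand: tgggaaggaatttcTGGTGCTa
Col3a1, chr1:45348968-45348989, plus strand: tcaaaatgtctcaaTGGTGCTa
Col5a2, chr1:45374965-45374986, minus strand: ttttcttttaatgaTGGTGCTa
Col4a1, chr8:11199761-11199782, minus strand: ccaccgtcacaacaTGGTGCTa
Col4a2, chr8:11448345-11448366, plus strand: tgggaaggccacgtTGGTGCTt
Col4a2, chr8:11448516-11448537, plus strand: caccacacccagctTGGTGCTt
Col4a3, chr1:82720622-82720643, plus strand: ggaagtggacgtgaTGGTGCTg
Col6a2, chr10:76598750-76598771, minus strand: agcacaaatgggggTGGTGCTa

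Neither the bases beside the match nor the miR-29 RNAs themselves were measured for an effect, and a match is a description of the letters. In the livers described next, 8 of the 12 collagens that rose held a match and so did 4 of the other 5 tested. Col1a2, Col6a1, Col12a1, Col14a1 and Col18a1 had none in the annotated transcript.

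Of the 44 collagens, 17 reached 1 RPKM in at least 2 of the 6 livers and were tested: 6 fibrillar, 5 basement membrane and 6 other. Col12a1 and Col16a1 reached it in TG Aire-/- livers alone, so they had to differ once they were tested. The other 27 stayed low. Col15a1 (1.42 RPKM) and Col11a1 (1.02) reached the highest single values among them, 12 were below 0.1 RPKM in every liver, and Col2a1, the cartilage collagen, was listed at 0 in all 6.

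**Figure D1:**
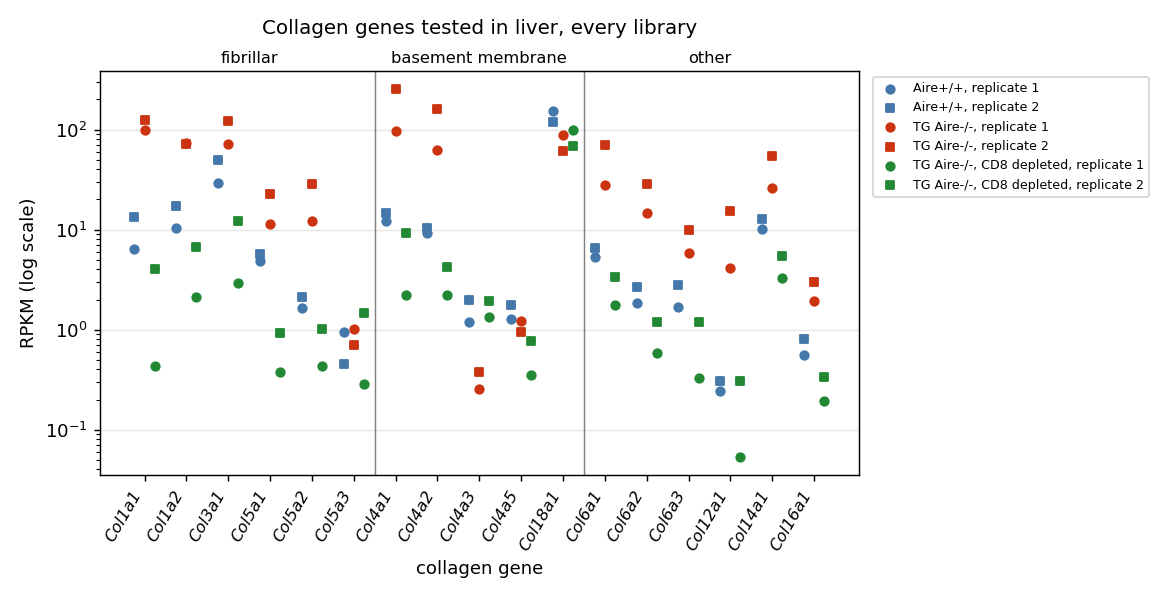
RPKM (log axis) of the 17 tested collagen genes, in 3 classes, in each of the 6 liver libraries. Colour gives the group and shape the replicate number. TG Aire-/- libraries stand above both other groups for most genes of the fibrillar and other classes, for example Col1a1 at 98.6 and 124 against 0.428 to 13.4, whereas Col18a1 spans only 61.5 to 154.

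The first comparison asks how collagen expression differs between the diseased TG Aire-/- livers and Aire+/+ livers. Of the 17 tested collagens 12 rose and 1 fell (limma, adjusted p under 0.05), against 37.3% of all 12231 genes called in this comparison, 31.8% higher and 5.5% lower. The groups did not overlap for 16 of the 17, 13 higher and 3 lower, against 78.3% of all genes, 63% higher and 15.4% lower. Without Col12a1 and Col16a1, 10 of 15 rose. The median log2 difference of RPKM + 1 was 1.64 over the tested collagens and 0.53 over all genes. The overlap count and this median include Col12a1 and Col16a1, whose order the filter fixed. In bulk tissue fewer cells of a type and less RNA per cell cannot be told apart.

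The 6 tested fibrillar chains had a median log2 difference of 1.90, and 4 of them rose. Col1a1 (chr11:94936224-94953042), the major chain of type I collagen, was at 6.39 and 13.4 RPKM in Aire+/+ livers, 98.6 and 124 in TG Aire-/- and 0.428 and 4.08 after CD8 depletion. Its levels did not overlap between any of the 3 groups, and TG Aire-/- exceeded Aire+/+ by a log2 difference of 3.44 (SE 0.590, limma adjusted p = 0.00563), an 11.3-fold difference of mean RPKM. Col1a2 (chr6:4504814-4541544), the partner chain in the type I heterotrimer, was at 10.4 and 17.2, then 73.5 and 71.8, then 2.11 and 6.73 RPKM in the same order. It rose 5.27-fold (log2 2.35, SE 0.449, limma adjusted p = 0.00763).

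The chains of type I thus did not rise by the same factor. Col1a1 stood at 0.61 and 0.78 times the level of Col1a2 in Aire+/+ livers, at 1.34 and 1.73 times in TG Aire-/- and at 0.20 and 0.61 times after depletion. Col3a1 (chr1:45311538-45349706), the chain of type III collagen that is laid down with type I in early scar, was at 29.5 and 50.1 RPKM in Aire+/+, 71.2 and 121 in TG Aire-/- and 2.94 and 12.1 after depletion. Although its groups did not overlap, its difference between TG Aire-/- and Aire+/+ missed the threshold (log2 1.25, SE 0.579, limma adjusted p = 0.123), and it passed when only these 2 groups were fitted (adjusted p = 0.0414). The ratio of Col3a1 to Col1a1 was 4.62 and 3.75 in Aire+/+ livers and 0.72 and 0.97 in TG Aire-/-, so Col3a1 led the fibrillar transcripts in the former, and Col1a1 was above Col3a1 in both of the latter. With 2 libraries a group an exact permutation test of such a ratio cannot give a two-sided p below 0.333.

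Type V collagen nucleates type I fibrils and limits their width. Col5a2 was at 1.66 and 2.12 RPKM in Aire+/+ livers, 12.2 and 28.6 in TG Aire-/- and 0.433 and 1.03 after depletion. It rose 10.8-fold (log2 2.78, SE 0.407, limma adjusted p = 0.00351). Col5a1 moved less: it was at 4.89 and 5.70, 11.4 and 22.8, and 0.373 and 0.916 RPKM (log2 1.45, SE 0.363, limma adjusted p = 0.0196). Col5a3, the third chain, was at 0.954 and 0.457, 1.02 and 0.696, and 0.285 and 1.48 RPKM, so its groups overlapped (log2 0.13, limma adjusted p = 0.772), and the sign of its difference turned under both rescalings. The ratio of Col5a2 to Col5a1 was 0.34 and 0.37 in Aire+/+ and 1.07 and 1.26 in TG Aire-/-.

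Among the fibrillar chains below the filter, Col11a1, a minor fibril chain best known from cartilage, was at 0 and 0.0189 RPKM in Aire+/+, 0.565 and 1.02 in TG Aire-/- and 0 in both depleted livers. Col11a2 was at 0.0421 and 0.0447, 0.385 and 0.690, and 0.0338 and 0.103 RPKM. Neither overlapped between TG Aire-/- and the other livers, and both were called higher when no filter was applied (log2 0.82 and 0.55, limma adjusted p = 0.0195 and 0.0269). That fit ended the calls of Col5a1 and Col6a3 (limma adjusted p = 0.0549 and 0.0604). Of the 27 collagens that were not tested, 9 were higher in both TG Aire-/- livers than in both Aire+/+ livers. Of all tested genes 63% showed that order, but those passed the filter that these 27 did not, so the shares cannot be compared directly.

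The basement membrane class divided. Col4a1 (chr8:11198423-11312826) and Col4a2 (chr8:11312805-11449287), the chains of the type IV network found in nearly every basement membrane, had, with Col1a1, the highest estimates on the log2(RPKM + 1) scale. Col4a1 was at 12.3 and 14.7 RPKM in Aire+/+ livers, 96.3 and 254 in TG Aire-/- and 2.21 and 9.31 after depletion (log2 3.45 for TG Aire-/- against Aire+/+, SE 0.617, limma adjusted p = 0.00631). Col4a2 was at 9.17 and 10.4, 61.9 and 160, and 2.21 and 4.25 RPKM (log2 3.23, SE 0.464, limma adjusted p = 0.00334). Both genes lie head to head on opposite strands, and in GENCODE vM21 their first exons overlap by 22 bases, so reads from those few bases cannot be assigned where strand is not known. The ratio of Col4a1 to Col4a2 was 1.34 and 1.42 in Aire+/+ and 1.56 and 1.59 in TG Aire-/- livers; after depletion it was 1.0 and 2.19.

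Col4a3 (chr1:82586921-82722059), a chain of the specialised type IV network of kidney and lung basement membranes, moved the other way. It was at 1.19 and 1.98 RPKM in Aire+/+ livers, 0.253 and 0.381 in TG Aire-/- and 1.34 and 1.91 after depletion, so the TG Aire-/- livers were below the other 4. It fell 5.00-fold in mean RPKM (log2 −0.96, SE 0.247, limma adjusted p = 0.0219). That call was lost without either Aire+/+ or either TG Aire-/- library (adjusted p = 0.0585 to 0.185), and the direction was kept. Its neighbour Col4a4, which starts 71 bases away on the opposite strand and whose product joins the same network, was low in all 6 livers (0.114 to 0.397 RPKM) and showed no such order, at 0.234 and 0.397, 0.190 and 0.291, and 0.114 and 0.185. The stretch between the starts is shown because both genes are read outward from it (chr1:82586850-82586920, GRCm38.p6, minus strand, RefSeq); it holds neither a CCAAT box nor the TATAAA box nor a GGGCGG element on either strand.
Col4a4 to Col4a3: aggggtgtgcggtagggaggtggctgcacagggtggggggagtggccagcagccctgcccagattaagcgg

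Col4a5, an X-linked chain of the same network, was at 1.28 and 1.75, 1.22 and 0.953, and 0.351 and 0.771 RPKM, with no call between TG Aire-/- and Aire+/+ (log2 −0.27, limma adjusted p = 0.393). Col18a1 (chr10:77052178-77166548) was the most abundant collagen of both Aire+/+ livers and both depleted livers. It was at 154 and 120 RPKM in Aire+/+, 88.2 and 61.5 in TG Aire-/- and 98.4 and 68.7 after depletion. The TG Aire-/- livers were lower without overlap, and the difference missed the threshold (log2 −0.88, SE 0.337, limma adjusted p = 0.0757) and passed it under both rescalings (log2 −1.57 and −1.53, adjusted p = 0.0316 and 0.0303). Col4a1 was at 0.08 and 0.12 times the level of Col18a1 in Aire+/+ livers and at 1.09 and 4.14 times in TG Aire-/-.

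In the other class the 4 tested chains that did not owe their place to the TG Aire-/- livers alone all rose, with a median log2 difference of 2.18. Type VI collagen forms beaded microfilaments around cells. Col6a1 was at 5.28 and 6.61 RPKM in Aire+/+ livers, 27.9 and 70.4 in TG Aire-/- and 1.76 and 3.34 after depletion (log2 2.72, SE 0.450, limma adjusted p = 0.00505). Col6a2 was at 1.84 and 2.66, 14.6 and 28.4, and 0.581 and 1.19 RPKM, with the lowest adjusted p of any collagen (log2 2.73, SE 0.366, limma adjusted p = 0.00283). Col6a3, whose chain completes the type VI monomer, was at 1.67 and 2.79, 5.88 and 9.93, and 0.331 and 1.18 RPKM and rose less (log2 1.45, limma adjusted p = 0.0199). It stood at 0.32 and 0.42 times Col6a1 in Aire+/+ and at 0.21 and 0.14 times in TG Aire-/-. Col6a4, Col6a5 and Col6a6 stayed at or below 0.125 RPKM in every liver.

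The fibril-associated chains decorate fibril surfaces. Col12a1 was at 0.244 and 0.304 RPKM in Aire+/+ livers, 4.09 and 15.2 in TG Aire-/- and 0.0536 and 0.305 after depletion (log2 2.84, limma adjusted p = 0.00562). By mean RPKM its level was 35.3-fold above Aire+/+ and 53.9-fold above depleted livers, more than that of Col1a1, from a low base. Col14a1 was the most abundant of them, at 10.1 and 12.9, 26.1 and 54.2, and 3.32 and 5.41 RPKM (log2 1.64, limma adjusted p = 0.0171). Col16a1 was at 0.553 and 0.797, 1.94 and 3.0, and 0.195 and 0.335 RPKM (log2 1.04, limma adjusted p = 0.0145). Col12a1 and Col16a1 reached 1 RPKM in TG Aire-/- livers alone, so the filter fixed their order and their p-values are no support. In Col14a1 too the TG Aire-/- livers were above the other 4.

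**Figure D2:**
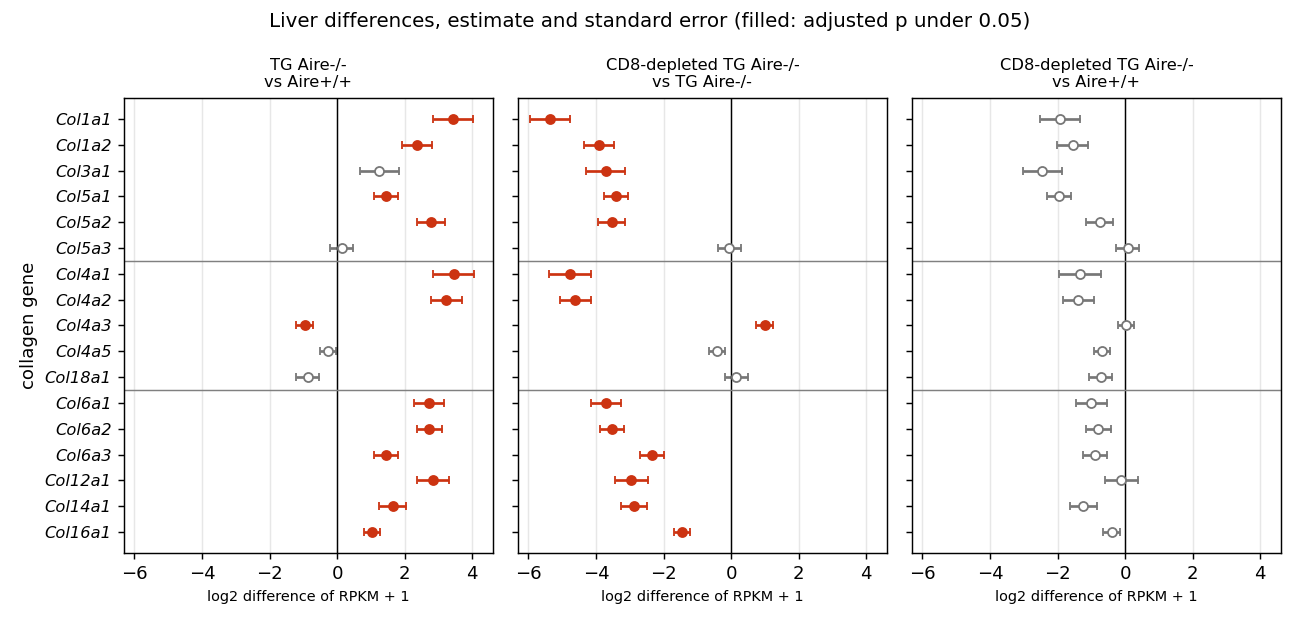
Estimated log2 difference of RPKM + 1 with its standard error for the 17 tested collagen genes in the 3 liver comparisons. Filled red points passed an adjusted p of 0.05: 13 in the left panel, 14 in the middle and 0 in the right, where 15 of 17 estimates lie below 0.

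The scaling mattered for the count. Rescaling the columns by the median of ratios or by the upper quartile moved the median of all genes from 0.53 to −0.05 and −0.02, and the share of all calls that were higher from 85.3% to 53.3% and 55.0%. Under each of these scalings 8 collagens rose (Col1a1, Col1a2, Col5a2, Col4a1, Col4a2, Col6a1, Col6a2 and Col12a1) and 2 fell (Col4a3 and Col18a1). Of all genes 1762 and 1815 then rose and 1546 and 1485 fell. One library carried much of the evidence: without TG Aire-/- replicate 2, which was the highest of the 6 livers for 12 of the 17 genes, 4 collagens were called (Col5a2, Col4a2, Col6a1 and Col6a2). Without Aire+/+ replicate 1 there were 7 and without replicate 2 there were 8, all higher.

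The second comparison asks what the collagens do in TG Aire-/- mice that were depleted of CD8+ T cells. It shares the TG Aire-/- livers with the first, so opposite signs in the 2 are in part built in. The depletion is visible in Cd8a, at 8.76 and 3.75 RPKM in TG Aire-/- livers and 0 and 0.187 after depletion. Of the 17 tested collagens 13 were lower and 1 was higher after depletion (limma, adjusted p under 0.05), against 38% of all genes called, 33.5% lower and 4.49% higher. The groups did not overlap for 15 of the 17, 14 lower and 1 higher, against 70.7% of all genes, 60.6% lower and 10.1% higher. Without Col12a1 and Col16a1, 11 of 15 were lower. The median log2 difference was −3.41 over the tested collagens and −0.58 over all genes. The overlap count and this median again include Col12a1 and Col16a1, whose order the filter fixed.

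On the log2(RPKM + 1) scale Col1a1 had the lowest estimate of the 17, and its mean RPKM was 49.5-fold lower after depletion (log2 −5.38, SE 0.590, limma adjusted p = 0.00204). Col4a2 was 34.4-fold and Col4a1 30.4-fold lower (log2 −4.62 and −4.78, adjusted p = 0.00175 and 0.00249). Col3a1, which had missed the threshold against Aire+/+, was 12.8-fold lower (log2 −3.71, adjusted p = 0.00433). Fibrillar chains had a median log2 difference of −3.62, with 5 of 6 lower, and chains of the other class, without Col12a1 and Col16a1, a median of −3.20, with 4 of 4 lower.

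In the basement membrane class 2 of 5 were lower and Col4a3 was higher (log2 0.99, SE 0.247, limma adjusted p = 0.0193), so the median was −0.43. The Col4a3 call was lost without either TG Aire-/- library or without depleted replicate 2 (adjusted p = 0.0588 to 0.0785). Col18a1 overlapped between the groups (log2 0.16, limma adjusted p = 0.726), and so did Col5a3 (log2 −0.05, limma adjusted p = 0.909). Both rescalings called the same 14 genes, while the share of all calls that were higher went from 11.8% to 45.2% and 40.3%, and the median of all genes from −0.58 to 0.06 and −0.01. Of all genes they called 1558 and 1661 lower and 1283 and 1120 higher. Leaving out 1 library gave 10 to 14 calls.

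The third comparison sets the depleted livers against Aire+/+ livers, again with libraries that both comparisons above used. No collagen was called (limma, lowest adjusted p = 0.0862, for Col5a1), against 0.548% of all genes, 67 of 12231 (0.221% higher and 0.327% lower), and 1327 genes at an unadjusted p under 0.05. The estimates were nonetheless low: 15 of 17 were below 0, with a median log2 difference of −0.90 against −0.04 over all genes, and 14 of 17 were lower without overlap, against 28.8% of all genes (20.2% were higher without overlap, 49% in all). Col5a1 had a log2 difference of −1.95 (SE 0.363) and was called under both rescalings (adjusted p = 0.0347 and 0.0417). Col3a1 had the lowest estimate (log2 −2.46, SE 0.579, limma adjusted p = 0.166), from 29.5 and 50.1 to 2.94 and 12.1 RPKM. The depleted livers differed from each other: replicate 1 was below replicate 2 for 16 of the 17 genes and was the lowest of all 6 livers for 15. Col4a3, at 1.19 and 1.98 against 1.34 and 1.91 RPKM, overlapped between these groups.

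Summed over a class, the 11 fibrillar genes came to 54.4 and 89.8 RPKM in Aire+/+ livers, 270 and 373 in TG Aire-/- and 6.92 and 27.1 after depletion. The 8 basement membrane genes came to 179 and 150, 249 and 478, and 105 and 86.6 RPKM. Without Col18a1 they came to 24.7 and 30.0, 161 and 417, and 6.37 and 17.9 RPKM, so that gene alone set the level of the class outside the TG Aire-/- livers. The 25 other genes came to 20.7 and 27.0, 82.1 and 183, and 6.82 and 12.4 RPKM. Each sum was highest in both TG Aire-/- livers. Fibrillar genes made up 21.4% and 33.7% of all collagen RPKM in Aire+/+, 44.9% and 36.0% in TG Aire-/- and 5.83% and 21.5% after depletion. Collagens other than Col18a1 made up 39.3% and 55.0%, 85.3% and 94.1%, and 17.0% and 45.5%.

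**Figure D3:**
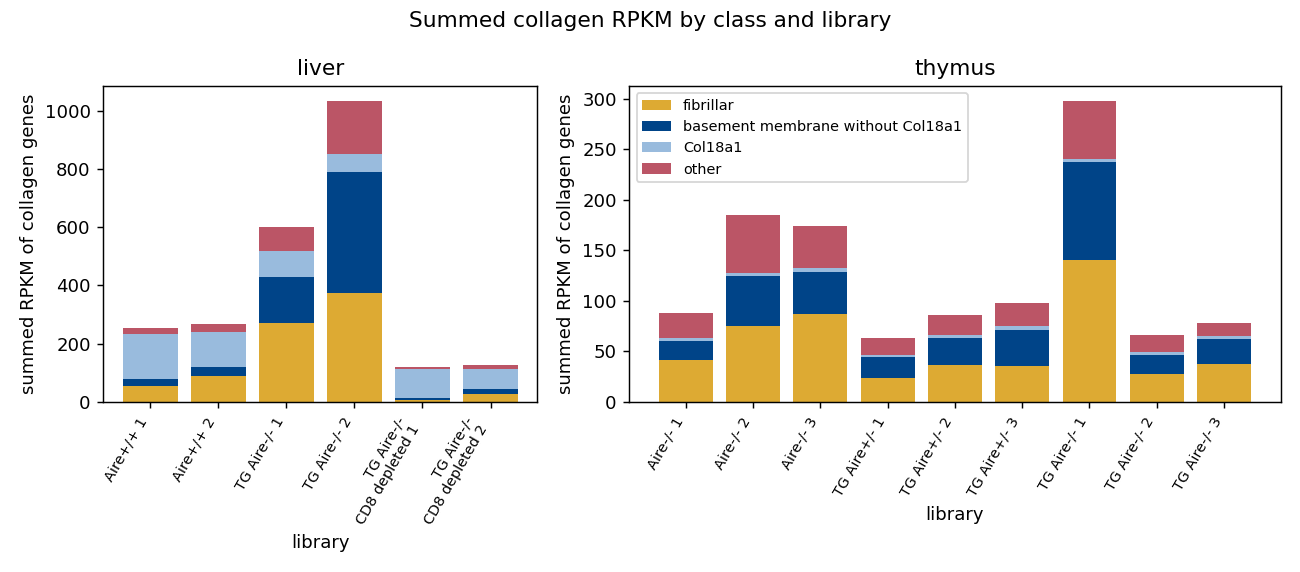
Summed RPKM of the collagen genes in each liver (left) and thymus (right) library, stacked by class with Col18a1 apart from the basement membrane class; the axes of the panels differ. The TG Aire-/- livers reach 601 and 1034 RPKM in all against 119 to 267 in the other livers, and the library labelled TG Aire-/- replicate 1 is the tallest thymus bar at 298.

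Other genes of the collagen pathway were read from the same fits. Of the enzymes and chaperones that modify and fold procollagen, 13 of 19 tested genes rose in TG Aire-/- against Aire+/+ livers and 0 fell. All genes together had 31.8% higher and 5.5% lower calls. Genes that reached 1 RPKM in TG Aire-/- livers alone had to differ once tested, and without these, Plod2 and P3h2, 11 of 17 rose. Plod2, the lysyl hydroxylase that directs stable cross-links, was at 0.363 and 0.675 RPKM in Aire+/+, 7.54 and 21.4 in TG Aire-/- and 0.270 and 0.452 after depletion (log2 3.20, limma adjusted p = 0.00285). P4ha2, a prolyl hydroxylase subunit, was at 0.558 and 0.730, 6.90 and 31.8, and 0.566 and 1.15 RPKM (log2 3.29, limma adjusted p = 0.00637). Serpinh1, the collagen chaperone HSP47, was at 12.2 and 13.1, 54.5 and 62.5, and 1.05 and 5.70 RPKM (log2 2.12, limma adjusted p = 0.0166). Creb3l1, Fkbp10 and Plod1 rose by log2 2.5, 2.49 and 2.18. Mia3, Mia2, Tmem38b, P3h1, Ppib and P4hb were not called. After depletion 14 of the 19 were lower than in TG Aire-/- livers, 12 of 17 without Plod2 and P3h2, against 33.5% of all genes.

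Of 10 tested genes for processing and cross-linking 7 rose and 0 fell, and 6 of 9 rose without Adamts14, which reached 1 RPKM in TG Aire-/- livers alone, against 31.8% of all genes. Lox, the lysyl oxidase that starts cross-links, was at 0.272 and 1.33 RPKM in Aire+/+ livers, 18.6 and 43.3 in TG Aire-/- and 0.0549 and 0.570 after depletion (log2 4.10, limma adjusted p = 0.00209). Loxl2, an oxidase known to act on type IV collagen, was at 3.74 and 4.53, 47.2 and 158, and 0.385 and 0.988 RPKM (log2 4.09, limma adjusted p = 0.00254). Sparc, a collagen-binding matrix protein, was at 83.9 and 91.4, 282 and 439, and 13.9 and 26.0 RPKM (log2 1.99, limma adjusted p = 0.00766). Loxl1 and Pcolce2 rose by log2 1.31 and 1.22, and Pcolce had a log2 difference of 1.48 with an adjusted p of 0.0857. After depletion 9 of the 10 were lower than in TG Aire-/- livers, 8 of 9 without Adamts14, against 33.5% of all genes.

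Of the genes of collagen breakdown 9 of 11 tested rose and 0 fell, and 6 of 8 without Mmp12, Mmp13 and Mrc2, which reached 1 RPKM in TG Aire-/- livers alone. Of all genes 31.8% rose and 5.5% fell. The macrophage elastase Mmp12 was at 0.0122 and 0.0134 RPKM in Aire+/+ livers, 5.78 and 61.8 in TG Aire-/- and 0.0609 and 0.833 after depletion (log2 4.35, limma adjusted p = 0.00947). Mmp13, a collagenase that cuts fibrillar collagen, was at 0 and 0.0735, 3.91 and 26.3, and 0.0507 and 0.0907 RPKM (log2 3.48, limma adjusted p = 0.00795). The inhibitors Timp3 and Timp1 rose too, by log2 3.30 and 2.24, so the list holds genes that slow breakdown beside those that carry it out. Mmp8 and Mmp14 rose by log2 2.41 and 1.37. Mmp2, a gelatinase, was not called at 4.77 and 5.87 against 3.49 and 3.35 RPKM, and both rescalings called it lower.

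All 5 tested collagen receptors rose, of which Ddr2 reached 1 RPKM in TG Aire-/- livers alone, which leaves 4 of 4. Among all genes 31.8% rose. Lair1, an inhibitory receptor of leukocytes, was at 0.507 and 0.716 RPKM in Aire+/+, 8.09 and 11.8 in TG Aire-/- and 1.35 and 2.81 after depletion (log2 2.75, limma adjusted p = 0.00217). Ddr1, a receptor tyrosine kinase, and Itga1, Itgb1 and Ddr2 rose by log2 2.28, 1.78, 1.79 and 1.13. After depletion 9 of the 11 breakdown genes and 5 of the 5 receptors were lower than in TG Aire-/- livers, and 6 of 8 and 4 of 4 without the genes that reached 1 RPKM in TG Aire-/- livers alone. Among all genes 33.5% were lower. Under both rescalings 3 of the 5 receptors were lower, with 12 of 19, 7 of 10 and 7 of 11 for the other lists in the order given. Of all genes 1558 and 1661 were then called lower. Between depleted and Aire+/+ livers 0 genes of the 4 lists were called without rescaling. Rescaling left 9 higher calls for biosynthesis, 3 for processing, 7 for breakdown and 4 for receptors in the first comparison. It gave 1 lower call each in processing (Bmp1) and breakdown (Mmp2). Of all genes 1762 and 1815 were called higher there and 1546 and 1485 lower. In the second Mia2 and Mia3 were then called higher after depletion, and in the third it called Mmp2 lower. These genes are named after their values were seen.

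Markers of other cell types were read beside the collagens. All 4 tested myofibroblast markers rose in TG Aire-/- livers, for example Acta2, at 1.59 and 2.17, 50.9 and 33.5, and 0.228 and 0.676 RPKM, and their list summed to 12.5 and 16.9, 195 and 208, and 3.42 and 5.44 RPKM. Lox belongs to that list and to the cross-linking list. Of 7 tested stellate cell markers 3 rose, and 2 rose and 1 fell under both rescalings, while 31.8% of all genes rose. In that list the quiescent-cell gene Lrat was at 3.42 and 3.78, 3.54 and 3.17, and 2.25 and 1.66 RPKM. The list summed to 31.9 and 35.3, 50.1 and 103, and 12.1 and 20.2. All 6 endothelial markers rose, with list sums of 25.0 and 22.2, 141 and 257, and 17.3 and 20.7 RPKM. Mesothelial markers summed to 2.00 and 2.12, 15.1 and 15.5, and 0.138 and 0.277 RPKM, and both tested genes rose, of which Msln reached 1 RPKM in TG Aire-/- livers alone. Of 5 tested portal fibroblast markers 2 rose (sums 15.7 and 22.7, 67.1 and 37.7, 3.26 and 10.8), as did 2 of 5 of cholangiocytes (sums 24.6 and 37.0, 51.2 and 98.9, 19.6 and 100.2), shares near the 31.8% of all genes. Fbln2 and Krt7 among them reached 1 RPKM in TG Aire-/- livers alone, and under both rescalings 1 portal fibroblast and 0 cholangiocyte markers rose. Most of each cholangiocyte sum was 1 gene, Spp1, at 21.7 and 33.0, 43.0 and 70.7, and 18.0 and 94.3 RPKM. Thy1 of the portal fibroblast list, which T cells also express, was at 0.507 and 0.594, 15.9 and 7.54, and 1.22 and 2.43 RPKM. In sorted liver CD8+ T cells it was at 338 (Aire-/-), 447 (TG Aire+/-) and 364 RPKM (TG Aire-/-).

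Hepatocyte markers ran lower, with 1 of 6 called and sums of 35284 and 23546 RPKM in TG Aire-/- against 52250 and 52291 in Aire+/+ and 59508 and 32491 after depletion. Under both rescalings 3 of the 6 were called lower than in Aire+/+ livers. Both also called 2 of the 6 higher after depletion than in TG Aire-/- livers. Without rescaling 5.5% of all genes fell and 31.8% rose in TG Aire-/- livers. T cell markers (4 of 4; sums 1.96 and 1.68, 32.4 and 19.5, 4.42 and 7.71), macrophage markers (3 of 3; 29.2 and 26.1, 166 and 255, 24.8 and 66.0) and sinusoidal endothelial markers (3 of 4; 24.1 and 15.9, 98.2 and 170, 19.0 and 18.3) also rose. The part of these cell types in the collagen differences was not tested. Of 6 fat markers the 2 tested rose, and nearly all of their sum was Fabp4, which endothelium and macrophages also express, at 9.39 and 5.63, 257 and 604, and 2.72 and 6.27 RPKM. Adipoq and Lep were listed at 0 in all 6 livers, as was the muscle myosin Myh4, and the 4 cartilage and bone markers were at or below 0.0389 RPKM.

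Summed collagen RPKM was 63.1 to 298 in thymus, and 60.8 to 295 without Col18a1. The highest sums were those of TG Aire-/- replicate 1, and the next were 185 and 182, in Aire-/- replicate 2. Without Col18a1 the Aire+/+ livers came to 99.8 and 147 and the depleted livers to 20.1 and 57.4, so all 9 thymus libraries lay above the depleted livers. The most abundant collagen of each thymus was Col3a1 or Col4a1, while Col18a1, the leader of the Aire+/+ liver, was at 2.38 to 3.59 RPKM in all 9 thymus libraries. The tables were normalised apart, so levels are set side by side across tissues without a test. In thymus 16 collagens were tested, 13 of them also in liver. Col15a1, Col11a2 and Col27a1 were tested in thymus alone, and Col4a3, Col4a5, Col5a3 and Col16a1 in liver alone.

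**Figure D4:**
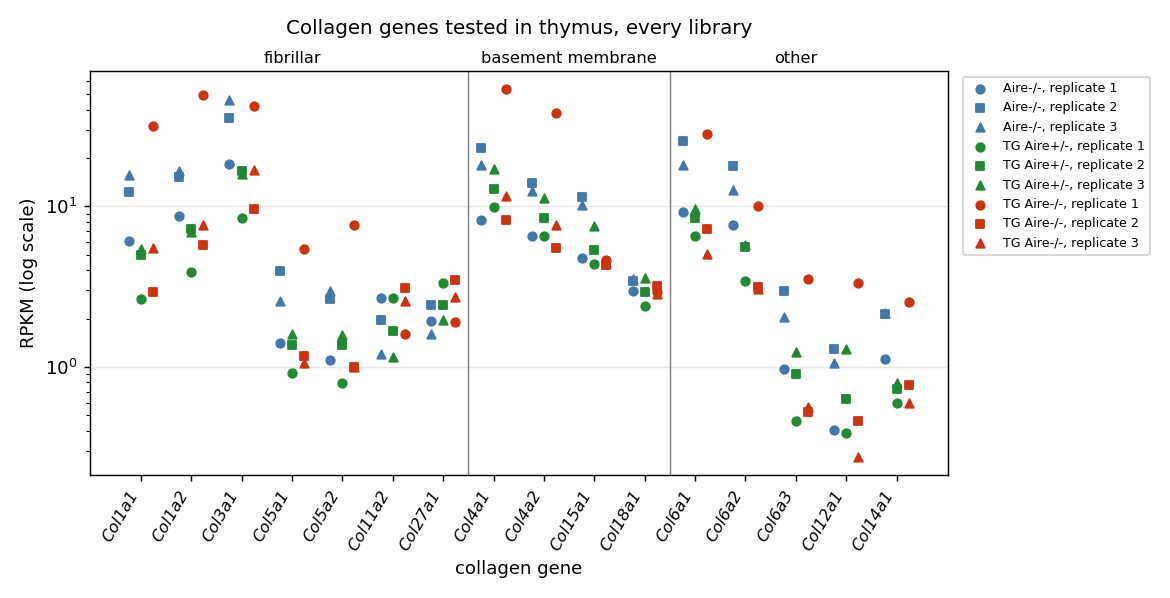
RPKM (log axis) of the 16 tested collagen genes in each of the 9 thymus libraries, with colour for group and shape for replicate. The red circles, TG Aire-/- replicate 1, lie above the rest of their group for 13 of 16 genes, for example Col1a1 at 31.4 against 2.94 and 5.47.

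No collagen was called in any thymus comparison, with lowest limma adjusted p of 0.892 for TG Aire-/- against TG Aire+/-, 0.610 for TG Aire-/- against Aire-/- and 1.0 for TG Aire+/- against Aire-/-. Over all 12568 genes limma called 0%, 0.0159% and 0%, and 279, 949 and 118 genes had an unadjusted p under 0.05. Col1a1 was at 6.12, 12.2 and 15.7 RPKM in Aire-/-, 2.64, 4.94 and 5.43 in TG Aire+/- and 31.4, 2.94 and 5.47 in TG Aire-/- thymus. TG Aire-/- replicate 1 was thus 7.46-fold above the mean of the other 2 libraries of its group. With that library TG Aire-/- exceeded TG Aire+/- thymus by log2 0.86 (SE 0.674, limma adjusted p = 0.892), and without it the estimate was −0.036 (adjusted p = 0.988).

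Col3a1 was at 18.4, 35.2 and 45.6 RPKM in Aire-/-, 8.45, 16.7 and 15.9 in TG Aire+/- and 42.2, 9.67 and 16.8 in TG Aire-/-. Col4a1 was at 8.19, 22.9 and 18.1, then 9.88, 12.7 and 17.1, then 53.7, 8.18 and 11.6. In both the highest or nearly highest library was again TG Aire-/- replicate 1, which led all 9 libraries for 10 of the 16 genes. Col15a1, a basement membrane chain around vessels, did not follow: it was at 4.74, 11.5 and 10.2, then 4.39, 5.33 and 7.57, then 4.65, 4.30 and 4.44 RPKM, and Col18a1 was at 2.91, 3.19 and 2.83 in TG Aire-/-. Marker sums moved with that library as well: fat markers came to 1078 RPKM against 70.0 to 136 elsewhere, endothelial markers to 113 against 41.0 to 70.4, and thymic mesenchyme markers to 181 against 32.6 to 66.0. Their part in its collagen levels was not tested.

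TG Aire+/- thymus ran below Aire-/- thymus for 15 of the 16 genes by estimate, with a median log2 difference of −0.55 against 0.01 over all genes. For 5 of the 16 the groups did not overlap (Col1a1, Col1a2, Col3a1, Col6a2 and Col14a1), against 2.26% of all genes lower without overlap and 5.49% higher (7.75% in all). Col14a1 reached 1 RPKM in no TG Aire+/- library, so the filter in part fixed its order and it is no support. Col6a2 was at 7.64, 17.8 and 12.6 RPKM in Aire-/-, 3.43, 5.54 and 5.74 in TG Aire+/- and 9.99, 3.16 and 3.07 in TG Aire-/- (log2 −1.17 for TG Aire+/- against Aire-/-, SE 0.422, limma adjusted p = 1.0). Within Aire-/- thymus, replicate 1 was below both others for 14 of the 16 genes. Between TG Aire-/- and Aire-/- thymus the lowest adjusted p, 0.610, was reached by Col6a2 (log2 −1.19) and Col15a1 (log2 −0.77). Without TG Aire-/- replicate 1 they were at log2 −1.66 (limma adjusted p = 0.118, the lowest) and −0.79 (adjusted p = 0.408). Col15a1 was the 1 collagen whose groups did not overlap there, against 8.69% of all genes (2.27% higher, 6.42% lower), and between TG Aire-/- and TG Aire+/- thymus there was none, against 9.35% (1.47% higher, 7.88% lower). Without that replicate 10 of the 16 collagens were lower than in Aire-/- thymus without overlap and 1, Col27a1, was higher, against 15.9% lower and 9.09% higher of all genes, and Col6a2 alone was lower than in TG Aire+/- thymus, against 19.7%. Col14a1 is among these 10. Outside Aire-/- thymus it reached 1 RPKM only in TG Aire-/- replicate 1, so the filter fixed its order once that library was dropped. With TG Aire-/- replicate 1 left out, limma called 0 collagens in the 3 thymus comparisons, with lowest adjusted p of 0.954, 0.118 and 0.807 in the order above.

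Proportions within a trimer were read in thymus as well. Col1a1 stood at 0.51 to 0.95 times Col1a2 in the 9 thymus libraries, a range that the Aire+/+ livers share and the TG Aire-/- livers exceed. The ratio of Col4a1 to Col4a2 was 1.25 to 1.65 in thymus. For type VI, Col6a1 was 1.21 to 2.82 times Col6a2 in thymus and 1.92 to 3.04 times in liver, ranges that overlap. The thymus value of 2.82 is that of TG Aire-/- replicate 1, and the next was 2.28, in TG Aire-/- replicate 2.

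Promoters were searched for common elements over the collagens as a family. Col1a1, Col5a2, Col4a3, Col12a1 and Col14a1, all called in liver, had no promoter in this search. Whether the elements differ between collagens that moved in liver and those that did not was not tested. In the 250 bases before the start, GGGCGG, the core of the Sp1 element, was found on either strand in 22 of 38 collagen promoters (57.9%, 35 genes matched by symbol in RefSeq, GRCm38.p6) against 32.7% of 32851 promoters of the same length. The CCAAT box was found in 34.2% against 33.8% and the TATAAA box in 13.2% against 12.4%. By class GGGCGG was in 6 of 8 fibrillar, 4 of 8 basement membrane and 12 of 22 other promoters. A pair of fibrillar promoters, 100 bases up to the start, shows the contrast between genes that both were lower after depletion: Col5a1 holds the element, in capitals, and Col3a1 holds none of the 3 motifs there.
Col5a1, chr2:27886325-27886424, plus strand: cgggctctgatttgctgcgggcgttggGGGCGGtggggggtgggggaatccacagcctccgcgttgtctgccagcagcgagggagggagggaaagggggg
Col3a1, chr1:45311438-45311537, plus strand: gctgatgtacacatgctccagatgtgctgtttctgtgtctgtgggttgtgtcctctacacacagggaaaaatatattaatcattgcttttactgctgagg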

How the data were processed

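Bulk RNA-seq of 18 of the 22 samples was used, and the 4 liver samples without a batch number were not analysed here. The authors deposited RPKM values in 3 tables. The submitters' processing notes list the aligner STAR (2.5.2b) and the build mm10; no source used here gives the counting tool, strand or annotation. Liver and thymus were fitted separately with limma 3.58.1 in R 4.3.3 (lmFit, eBayes with trend, two-sided) on log2(RPKM + 1), which understates changes of low genes. Each table was fitted once over its 3 groups, with no covariate. Genes needed an RPKM of 1 in at least 2 liver or 3 thymus libraries. P-values were adjusted by Benjamini-Hochberg over all genes tested, with a threshold of 0.05. "Rose", "fell" and "called" mean past it. The fit was tested on simulated data.

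Members and gene lists were chosen with earlier results of these data known. All tested collagens are given by library, and up to 6 genes of each pathway list by size of the first liver difference. Inferred reads were whole within 0.1 read for 40.0% to 49.0% of low values, where chance gives 20%, so no count test was made. At these depths 3 reads on 5000 bases give 0.0201 to 0.0299 RPKM, for counting error only. Gene positions and 3′ untranslated regions come from GENCODE vM21 (GRCm38, the assembly mm10 names). Alternatives were another pseudocount, no filter, 2 rescalings, no trend, 2 groups only, the replicate number as a block, each library left out, and, chosen after seeing the data, a filter of 1 RPKM in 1 library, counts without genes that passed through 1 group alone, and thymus orders without TG Aire-/- replicate 1.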

Additional observations from a re-analysis of the deposited data

Results flagged for a closer look

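Sorted liver CD8+ T cells, with 1 library per genotype and no place in the comparisons, held little collagen RNA: 34 of the 44 genes stayed below 0.1 RPKM and their sum over all 44 came to 5.51 RPKM in the Aire-/- library, 3.0 in that of TG Aire+/- and 2.48 in that of TG Aire-/-. The genes named here reached 0.5 RPKM in at least 1 of these libraries, above what 3 reads give. Col11a2 was at 2.26, 1.34 and 0.835 RPKM in that order, which in each library exceeds its 0.0338 to 0.690 RPKM in whole liver. Its neighbour on the chromosome, Rxrb, was at 17.6, 17.2 and 20.6 RPKM in the same cells, and whether reads are shared between the genes was not tested. Col20a1 was at 0.727, 0.311 and 0.479 RPKM and the transmembrane collagen Col23a1 at 0.640, 0.583 and 0.179. Col4a1 was at 0.535 RPKM in Aire-/- cells and at or near 0 in the other 2. Without replicates these values carry no test.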

How the results depend on the processing

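Collagens called in liver TG Aire-/- against Aire+/+ were 13, and 4 to 14 with 1 library left out. Against TG Aire-/- the depleted livers gave 14, and 10 to 14. Against Aire+/+ they gave 0, and 1 under median-of-ratios rescaling, upper-quartile rescaling and the replicate block. Whether replicate numbers pair samples is not stated by the labels. Correlations of same-numbered deviations were 0.292, −0.0925 and −0.145 in liver and −0.183 to 0.766 in thymus. Differently numbered thymus libraries gave −0.757 to 0.55. In groups of 2 the deviations mirror each other, so the liver values cannot decide whether numbers pair. The block gave 14, 14 and 1 calls in liver and 0 in thymus. All thymus counts stayed at 0 in the alternatives run. Single estimates were followed in liver for called collagens and for Col1a1, Col1a2, Col3a1, Col4a1, Col4a2, Col4a3 and Col18a1. In thymus Col1a1, Col3a1, Col6a2, Col14a1 and Col15a1 were followed, each in chosen comparisons. Col5a3 and Col4a5 were not followed. Among those followed, signs reversed in 5 cases with 1 library left out. Col18a1, depleted against TG Aire-/-, was at −0.10 without TG Aire-/- replicate 2 and −0.099 without depleted replicate 1 (range −0.10 to 0.41). Col4a3, depleted against Aire+/+, was at −0.19 without Aire+/+ replicate 1 and −0.13 without depleted replicate 2 (range −0.19 to 0.25). Thymus Col1a1, TG Aire-/- against TG Aire+/-, was at −0.036 without TG Aire-/- replicate 1 (range −0.036 to 1.48). Type IV chains alone summed to 26.7 RPKM in Aire+/+ and 11.3 in depleted livers on average, against 164 and 95.7 for the whole basement membrane class. The cause of these changes was not tested. Without the filter on low values 13 collagens were called in the first comparison, of which 11 were shared with the filtered fit. Groups of 2 leave 1 library where another is removed, which is then assumed to vary like the other groups.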
